A study of Mus musculus with 9 samples.

Results

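The genes described here are 9 enzymes that make or break long-chain acyl-CoA, picked by name from a table of 30350 genes: the acyl-CoA thioesterases Acot1, Acot2, Acot7, Acot9 and Acot13, and the long-chain acyl-CoA synthetases Acsl1, Acsl3, Acsl4 and Acsl5. All 9 had a row in the table, and all 9 passed the filter of a mean of at least 1 FPKM that left 11659 genes for testing. RNA was sequenced from AML12, a hepatocyte line from a mouse transgenic for a growth factor (TGF alpha), in 3 groups of 3 libraries. NC cells grew in DMEM/F12 medium, FFA cells in DMEM/F12 with free fatty acids, and FFA_SIN cells in DMEM/F12 with free fatty acids and sinomenine, a plant alkaloid that the study examined for steatohepatitis. Once confluent, the FFA_SIN cells had 24 hours of fatty acids and then 48 hours of fatty acids with 200 µM sinomenine. The labels do not say which fatty acids were given, at what dose, or for how long NC and FFA cells were cultured. The fatty acids and any difference in culture time therefore cannot be told apart. In the same way, sinomenine and any difference between FFA_SIN and FFA cells in time with fatty acids or in culture cannot be told apart. No group received sinomenine without fatty acids.

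A fatty acid has to be joined to coenzyme A before a cell can burn it, store it or build it into membranes. The synthetases (ligases) make this bond at the surface of mitochondria, endoplasmic reticulum and lipid droplets, and the thioesterases cut it again and release the fatty acid and coenzyme A. In liver, the opposed steps set how much acyl-CoA is present, and several of these genes are known targets of PPAR alpha, the nuclear receptor that senses fatty acids.

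The level of each gene is given in FPKM, fragments per kilobase of gene and per unit of sequencing depth, which is scaled to gene length. The length that the values imply is the total of all exons of a gene, so comparisons of levels between genes depend on that length, while comparisons between groups do not. The steps between low values implied 43.2 to 71.4 M reads per library (M, mega). At that depth the members rested on between 483 reads (the lowest library of Acot2) and 35880 reads (the highest of Acsl4), and counting error was at most 4.55% of a value. Fold changes (log2FC) are on the log2(FPKM + 1) scale with their standard error, from limma fitted to all 11659 genes, with p-values adjusted by Benjamini and Hochberg over all of them. The labels do not tell whether replicates came from separate cultures. If they did not, the p-values reflect technical spread between libraries alone. All 8 hepatocyte markers looked at had a mean of at least 1 FPKM, with a summed level of 1235 to 1257 FPKM in NC, 1731 to 1735 in FFA and 2381 to 2403 in FFA_SIN. Most of that sum was Trf, Ttr and Alb, which rose in each step with Fgb, while Hnf4a fell in each step (131, 118 and 104 FPKM). Apoa1 fell with sinomenine (3.57 to 2.58 FPKM), and Apoe and Serpina1a did not pass the threshold. The summed level of 4 cholangiocyte markers was 1444 to 1514 FPKM in NC, 1339 to 1358 in FFA and 1049 to 1081 in FFA_SIN. Most of it was the keratin Krt19, and among the 4 Epcam was at or near 0. Krt19 and Krt7 fell in each step, whereas Sox9 rose, at 12.6, 21.4 and 27.9 FPKM. Of 4 stellate cell markers only Des reached 1 FPKM (summed level 9.91 to 10.2 in NC, 5.69 to 6.64 in FFA and 3.23 to 3.36 in FFA_SIN), and Lrat was at or near 0. Of 4 macrophage markers 2 had a row, and Cd68 was the one above 1 FPKM (summed level 1.85 to 2.59 FPKM over all libraries). Endothelial markers summed to at most 0.115 FPKM. These sums and single markers moved with the groups, not all in 1 direction, and their part in the results was not tested. In bulk RNA, a change in the mix of cells and a change in RNA per cell cannot be told apart.

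Most of the 9 genes were higher in cells given fatty acids, and Acot1 and Acot2 by far the most, at nearly 3 times the level of NC. In FFA against NC, 7 of the 9 genes rose (Acot1, Acot2, Acot9, Acot13, Acsl1, Acsl3 and Acsl4), Acsl5 fell, and Acot7 did not pass the threshold of an adjusted p of 0.05. Over all genes tested, 19.1% rose and 18.4% fell in this comparison, 37.5% together. The members' median log2FC was 0.34, against 0.0043 over all genes. The libraries of FFA and NC did not overlap for 8 of the 9 genes, against 48.9% of all genes. A called change of at least 0.5 in log2FC was seen for 3 of the 9 (Acot1, Acot2 and Acsl3), against 2.64% of all genes. The 9 genes were chosen with earlier results of these data known. Their counts beside the shares of all genes are therefore descriptions, and cannot test whether the family differs from other genes.

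With sinomenine added, changes were smaller and fewer. In FFA_SIN against FFA, 3 of the 9 genes rose further (Acot1, Acot13 and Acsl4) and 2 fell (Acot7 and Acsl5), where 13.9% of all genes rose and 17.3% fell, 31.2% together. The members' median log2FC was 0.09, against -0.0089 over all genes. Libraries did not overlap for 6 of the 9 genes, against 45.5% of all genes. None of the 9 had a called change of at least 0.5 in log2FC by limma (the largest was 0.37, for Acot13), against 2.56% of all genes. In FFA_SIN against NC all 9 genes passed the threshold, 7 higher (24.7% of all genes) and 2 lower (26.5% of all genes; 51.3% together). Libraries of these groups did not overlap for any of the 9, against 60.1% of all genes. Of the 9, 4 had a called change of at least 0.5 in log2FC (Acot1, Acot2, Acot13 and Acsl3), against 6.63% of all genes. The comparisons share libraries (FFA enters the first and the next, NC the first and the last), so they are not independent of each other. The choice of the 9 genes with earlier results known limits these counts as well.

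**Figure D1:**
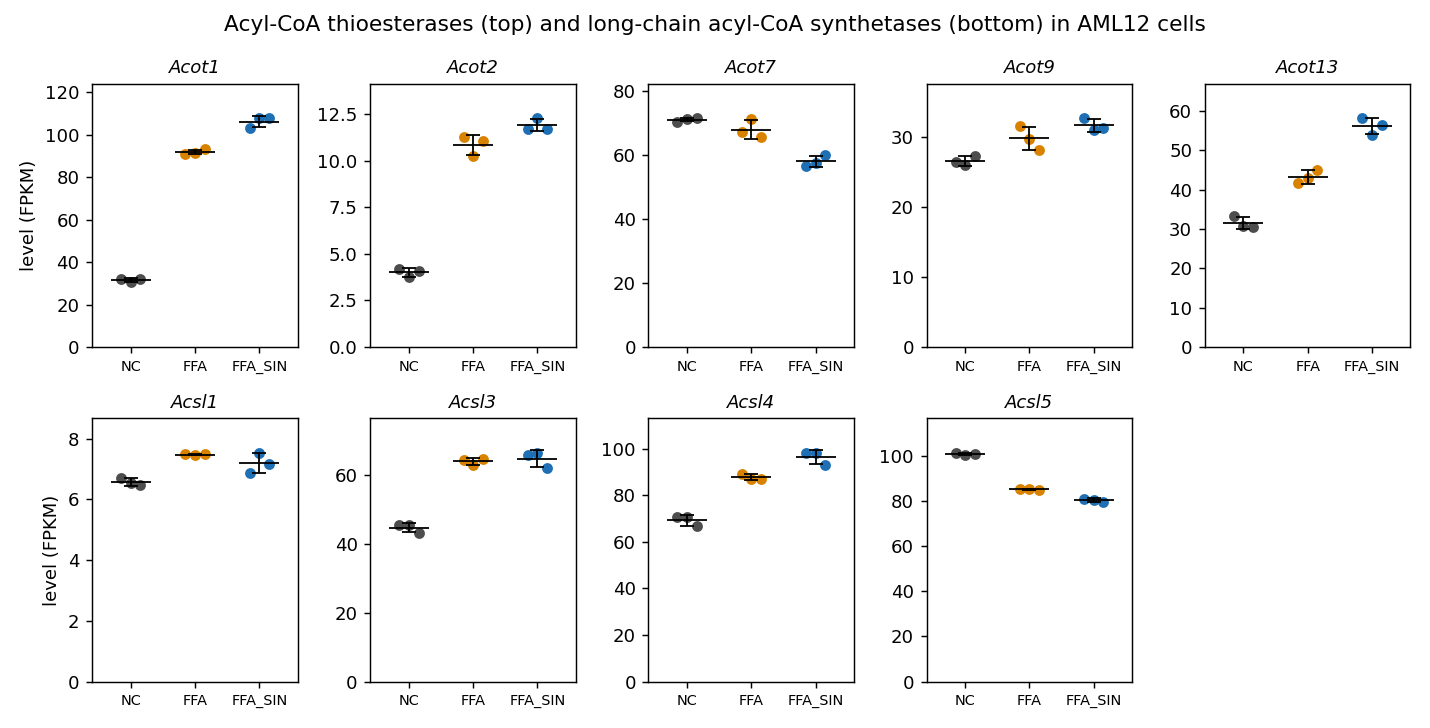
Level in FPKM (vertical axis, from 0) of the 9 genes in the NC, FFA and FFA_SIN groups. Each point is a library, and the black line and bars are the group mean and SD (n = 3). Acot1 and Acot2 stand at about 3 times their NC level in both fatty acid groups, Acot13 rises from 31.5 to 43.2 and 56.2 FPKM, and Acsl5 falls from 101 to 85.1 and 80.3 FPKM.

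**Figure D2:**
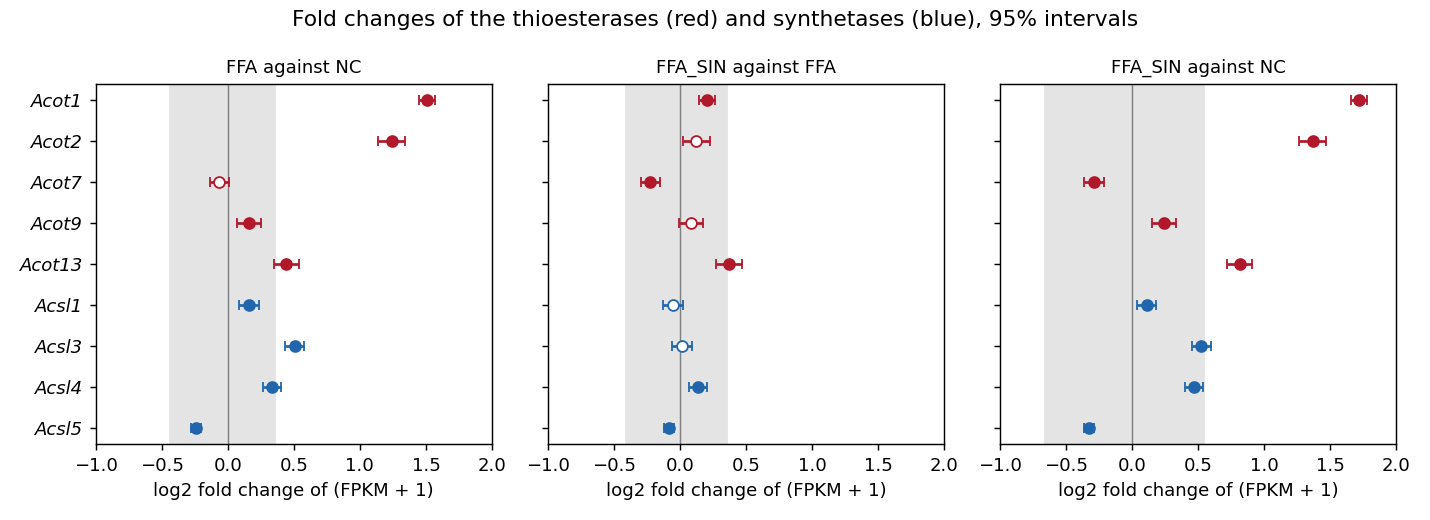
Log2 fold change of FPKM + 1 (horizontal axis) of each gene in the 3 comparisons, with its 95% interval from the fit to all genes (thioesterases red, synthetases blue). Open points did not reach an adjusted p of 0.05, and the grey band holds the middle 95% of all genes tested; Acot1, Acot2, Acot13 and Acsl3 lie to its right in FFA against NC, Acot13 in FFA_SIN against FFA, and Acot1, Acot2 and Acot13 in FFA_SIN against NC.

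Acot1 is the cytosolic thioesterase of long-chain acyl-CoA and a classic PPAR alpha target in rodent liver. Its level was 32.1, 30.5 and 32.2 FPKM in the NC libraries, 91.1, 91.5 and 93.1 FPKM in FFA, and 103, 108 and 108 FPKM in FFA_SIN. The 3 groups lay apart, with every FFA_SIN library above every FFA library and these far above NC. The mean rose 2.91-fold in FFA against NC (log2FC 1.51 ± 0.03, limma adjusted p = 1.79e-09), which ranked 13 by size among all 11659 genes. With sinomenine it rose by a further 1.16-fold (log2FC 0.21 ± 0.03, limma adjusted p = 0.000372), a step that 16.6% of all genes exceeded in size. FFA_SIN stood 3.36-fold above NC (log2FC 1.72 ± 0.03, limma adjusted p = 2.34e-10).

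Acot2, the mitochondrial matrix counterpart of Acot1, had a similar pattern at a much lower level. It was at 4.19, 3.74 and 4.10 FPKM in NC, 11.3, 10.2 and 11.04 FPKM in FFA, and 11.7, 12.3 and 11.7 FPKM in FFA_SIN. Both fatty acid groups were well above NC, and the FFA_SIN libraries lay just above those of FFA. In FFA against NC the mean rose 2.71-fold (log2FC 1.24 ± 0.05, limma adjusted p = 1.13e-07), and in FFA_SIN against NC 2.97-fold (log2FC 1.37 ± 0.05, limma adjusted p = 1.73e-08). The log2FC of FFA_SIN against FFA was 0.12 ± 0.05 (limma adjusted p = 0.0654; 95% interval 0.02 to 0.23), which missed the threshold. It passed with median-of-ratios scaling (adjusted p = 0.0479) and without NC replicate 2 (adjusted p = 0.0414), and over all alternatives the adjusted p lay between 0.0414 and 0.193.

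Acot1 and Acot2 are neighbours on mouse chromosome 12 and share much of their coding sequence. The level of each is therefore uncertain to the extent that reads were split between them. In the GENCODE vM21 transcripts, their coding sequences aligned over 1236 bases with 1181 identical (95.5%). Of all stretches of 100 bases in the Acot1 transcript, 16.5% were found letter for letter in Acot2, and of those in Acot2 17.1% were found in Acot1. Counting any other gene, 21.9% of the stretches of Acot1 were shared. The shared stretches all lay in the coding sequence, and the 3′ untranslated parts shared none. Acot1 was 7.66, 8.17 and 7.85 times the FPKM of Acot2 in the NC libraries, 8.07, 8.95 and 8.44 times in FFA, and 8.79, 8.76 and 9.21 times in FFA_SIN. Every FFA_SIN ratio was above every NC ratio, and the FFA ratios overlapped with both groups. By the length of the longest coding transcript in place of total exon length, the ratios were 13.2 to 15.9. Its log2 value differed by 0.10 between FFA and NC (exact two-sided permutation test, p = 0.2, adjusted 0.3), by 0.07 between FFA_SIN and FFA (exact p = 0.3, adjusted 0.3) and by 0.18 between FFA_SIN and NC (exact p = 0.1, adjusted 0.3). With 3 libraries against 3, 0.1 is the smallest p this test can give. With 1 FPKM added to both genes the differences from NC became 0.27 and 0.35, since the addition weighs more on Acot2.

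**Figure D3:**
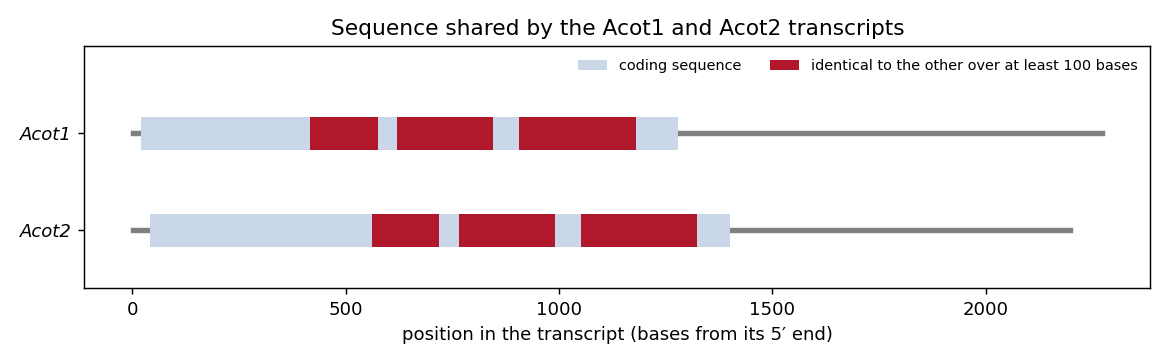
Transcripts of Acot1 (2272 bases) and Acot2 (2196 bases) by position in bases from the 5′ end (GENCODE vM21). Pale boxes are the coding sequence and red boxes the stretches of at least 100 bases that are identical in both; the red boxes lie inside the coding sequence, and the grey 3′ part holds none.

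The starts of the 2 genes are shown because the genes moved together and share most of their coding sequence, while the letters before their starts differ. The 250 bases upstream of the RefSeq start (GRCm38.p6, plus strand, 5′ to 3′) are chr12:84009252-84009501 for Acot1 and chr12:83987611-83987860 for Acot2. Capitals mark the letters CCAAT or their reverse complement.
Acot1: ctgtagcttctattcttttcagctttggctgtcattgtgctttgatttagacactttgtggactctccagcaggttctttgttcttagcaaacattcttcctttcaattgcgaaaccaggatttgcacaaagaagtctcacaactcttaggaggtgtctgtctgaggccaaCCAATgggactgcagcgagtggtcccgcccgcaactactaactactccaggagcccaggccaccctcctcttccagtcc
Acot2: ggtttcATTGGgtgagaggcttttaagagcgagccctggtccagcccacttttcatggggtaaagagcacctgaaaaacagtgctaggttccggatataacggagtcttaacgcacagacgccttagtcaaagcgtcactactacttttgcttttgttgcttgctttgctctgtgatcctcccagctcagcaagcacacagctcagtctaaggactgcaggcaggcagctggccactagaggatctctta
Of the 9 members, 8 had at least 1 promoter in the RefSeq table, with 9 windows in all. None of the 9 windows held AGGTCA, the half-site of PPAR and many other nuclear receptors, on either strand, a match found in 14.0% of all 32851 promoter windows of this length. DR1, the direct repeat of that half-site with 1 base between the copies, was held by 0.0335% of all windows. It contains the half-site, so a window without AGGTCA cannot hold it, and its absence here adds nothing. CCAAT was found in 6 of the 9 windows (Acot1, Acot2, Acot9, Acsl1, Acsl3 and Acsl5), against 33.8% of all windows. These are exact matches of letters in a short window. They say nothing of sites elsewhere, or of sites in the window whose letters differ from the motif.

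Acot13, a small thioesterase of mitochondria and cytosol that works with the phosphatidylcholine transfer protein in liver, rose both with fatty acids and again with sinomenine. It was at 33.4, 30.7 and 30.5 FPKM in NC, 41.7, 42.9 and 45.0 FPKM in FFA, and 58.2, 54.0 and 56.4 FPKM in FFA_SIN. No library of a group overlapped with another group. The rise was 1.37-fold in FFA against NC (log2FC 0.44 ± 0.04, limma adjusted p = 5.63e-05) and 1.30-fold in FFA_SIN against FFA (log2FC 0.37 ± 0.04, limma adjusted p = 0.000189). The latter was the largest change of the 9 genes in that comparison, exceeded in size by 5.5% of all genes. FFA_SIN was 1.78-fold above NC (log2FC 0.82 ± 0.04, limma adjusted p = 3.97e-07).

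Acot7, a cytosolic thioesterase best known from brain, went the other way. Its level was 70.6, 71.2 and 71.7 FPKM in NC, 67.25, 71.3 and 65.6 FPKM in FFA, and 56.7, 57.5 and 60.04 FPKM in FFA_SIN. The FFA libraries spread across and below those of NC, and the FFA_SIN libraries lay below both groups. FFA against NC gave a log2FC of -0.06 ± 0.03 (limma adjusted p = 0.156; 95% interval -0.14 to 0.01). Without FFA replicate 2 it was -0.10 and passed (adjusted p = 0.0299; range over all alternatives 0.0299 to 0.423), and without FFA replicate 3 it was -0.0385. With sinomenine Acot7 fell, by 0.22 ± 0.03 in log2FC against FFA (limma adjusted p = 0.000727) and by 0.29 ± 0.03 against NC (limma adjusted p = 7.11e-05).

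Acot9, a mitochondrial thioesterase, rose slightly with fatty acids. It was at 26.4, 26.0 and 27.3 FPKM in NC, 31.5, 29.7 and 28.1 FPKM in FFA, and 32.7, 31.0 and 31.3 FPKM in FFA_SIN. Both fatty acid groups lay above NC and overlapped with each other. The log2FC was 0.16 ± 0.04 in FFA against NC (limma adjusted p = 0.0129) and 0.25 ± 0.04 in FFA_SIN against NC (limma adjusted p = 0.000754). For FFA_SIN against FFA it was 0.09 ± 0.04 (limma adjusted p = 0.136; 95% interval -0.0042 to 0.18), which passed without FFA replicate 1 (adjusted p = 0.0323; range over all alternatives 0.0323 to 0.385). Without FFA replicate 3 it was 0.0474.

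Among the synthetases, Acsl1, Acsl3 and Acsl4 rose with fatty acids and Acsl5 fell. Acsl3, which sits on lipid droplets and the endoplasmic reticulum and is known for its part in droplet growth, was at 45.5, 45.6 and 43.1 FPKM in NC. It was at 64.5, 62.8 and 64.7 FPKM in FFA and at 65.8, 66.5 and 62.1 FPKM in FFA_SIN. The fatty acid groups overlapped fully and lay above NC. It rose 1.43-fold in FFA against NC (log2FC 0.51 ± 0.03, limma adjusted p = 3.59e-06) and stood 1.45-fold above NC in FFA_SIN (log2FC 0.52 ± 0.03, limma adjusted p = 1.07e-06). FFA_SIN against FFA gave 0.02 ± 0.03 (limma adjusted p = 0.735), with a 95% interval of -0.06 to 0.09. Without FFA_SIN replicate 2 the sign turned, at -0.0021.

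Acsl4, which prefers arachidonic acid and other polyunsaturated fatty acids and is known from ferroptosis, was at 70.5, 70.7 and 66.7 FPKM in NC, 89.2, 87.2 and 86.8 FPKM in FFA, and 97.9, 98.2 and 93.0 FPKM in FFA_SIN. The 3 groups did not overlap. It rose 1.27-fold in FFA against NC (log2FC 0.34 ± 0.03, limma adjusted p = 3.33e-05) and 1.10-fold more in FFA_SIN against FFA (log2FC 0.13 ± 0.03, limma adjusted p = 0.00844). FFA_SIN against NC gave a log2FC of 0.47 ± 0.03 (limma adjusted p = 1.41e-06).

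Acsl5, a synthetase of mitochondria and endoplasmic reticulum, was the highest of the 9 genes in NC and the synthetase that fell. Its level was 101, 100.1 and 101 FPKM in NC, 85.3, 85.02 and 84.9 FPKM in FFA, and 80.9, 80.6 and 79.4 FPKM in FFA_SIN. The replicates lay within about 1 FPKM of their group mean and the groups did not overlap. It fell by 0.24 ± 0.02 in log2FC in FFA against NC (limma adjusted p = 5.77e-06), by 0.08 ± 0.02 in FFA_SIN against FFA (limma adjusted p = 0.00451) and by 0.32 ± 0.02 in FFA_SIN against NC (limma adjusted p = 2.9e-07). The step with sinomenine was small, exceeded in size by 50.3% of all genes.

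The starts of Acsl4, the highest of the 3 synthetases that rose, and of Acsl5, the synthetase that fell, are shown. They are the 250 bases upstream of the RefSeq start (GRCm38.p6), 5′ to 3′ on the gene's strand, chrX:142390536-142390785 on the minus strand for Acsl4 and chr19:55253119-55253368 on the plus strand for Acsl5, with CCAAT or its reverse complement in capitals.
Acsl4: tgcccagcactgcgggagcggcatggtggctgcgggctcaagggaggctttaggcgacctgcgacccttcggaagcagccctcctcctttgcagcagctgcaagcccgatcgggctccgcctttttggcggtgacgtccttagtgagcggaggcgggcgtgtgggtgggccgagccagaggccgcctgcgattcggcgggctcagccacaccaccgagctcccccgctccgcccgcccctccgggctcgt
Acsl5: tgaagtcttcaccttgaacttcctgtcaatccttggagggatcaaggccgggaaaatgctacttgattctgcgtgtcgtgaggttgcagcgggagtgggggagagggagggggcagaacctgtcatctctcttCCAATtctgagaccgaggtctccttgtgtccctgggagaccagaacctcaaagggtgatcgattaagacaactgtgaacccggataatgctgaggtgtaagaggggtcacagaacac
The Acsl4 window was 70.8% G and C and held no CCAAT, and the Acsl5 window was 52.8% G and C and held 1. The other synthetases that rose differed among themselves. The Acsl3 window was 75.6% G and C and held 1 CCAAT. Of the Acsl1 windows, 1 was 72.0% G and C and held none, and 1 was 48.4% and held 2. Any link of these letters to the changes was not tested.

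Acsl1, the main long-chain synthetase of mouse liver and a PPAR target there, was the lowest of the 4 synthetases. It was at 6.72, 6.55 and 6.47 FPKM in NC, 7.48, 7.46 and 7.49 FPKM in FFA, and 6.88, 7.54 and 7.16 FPKM in FFA_SIN. Both fatty acid groups lay above NC, and the FFA_SIN libraries lay on both sides of FFA. The log2FC was 0.16 ± 0.03 in FFA against NC (limma adjusted p = 0.00431) and -0.05 ± 0.03 in FFA_SIN against FFA (limma adjusted p = 0.284; 95% interval -0.12 to 0.02). The latter was -0.0225 without FFA_SIN replicate 1 and -0.0802 without FFA_SIN replicate 2. In FFA_SIN against NC it was 0.11 ± 0.03 (limma adjusted p = 0.0184), a call that was lost without NC replicate 3 (adjusted p = 0.0599) and without FFA_SIN replicate 2 (adjusted p = 0.0636; range over all alternatives 0.00855 to 0.0636).

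Because the genes moved unequally, the make-up of both families shifted. The summed level of the 5 thioesterases was 165 ± 2.35 FPKM in NC, 244 ± 1.64 in FFA and 264 ± 2.84 in FFA_SIN (SD, n = 3). That of the 4 synthetases was 221 ± 3.69, 244 ± 2.07 and 249 ± 6.14 FPKM. The thioesterase sum was thus below the synthetase sum in every NC library, about equal to it in FFA and above it in every FFA_SIN library. Acot1 made up 19.2 ± 0.303% of the thioesterase sum in NC, 37.7 ± 0.563% in FFA and 40.2 ± 0.886% in FFA_SIN, while the share of Acot7 went from 43.2 ± 0.788% to 27.9 ± 1.02% and 21.99 ± 0.43%. In the synthetases, Acsl5 held 45.5 ± 0.827% in NC, 34.8 ± 0.236% in FFA and 32.3 ± 0.516% in FFA_SIN. Acsl4 held 31.3 ± 0.524%, 35.9 ± 0.3% and 38.8 ± 0.237%. The share of Acsl1 was 2.97 ± 0.0307%, 3.06 ± 0.0223% and 2.89 ± 0.137%. These sums and shares are descriptions of RNA levels, with no test, and they depend on gene length. By the length of the longest coding transcript, the thioesterase sum was 226, 349 and 376 and the synthetase sum 253, 278 and 282, so that the former was above the latter in FFA already.

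**Figure D4:**
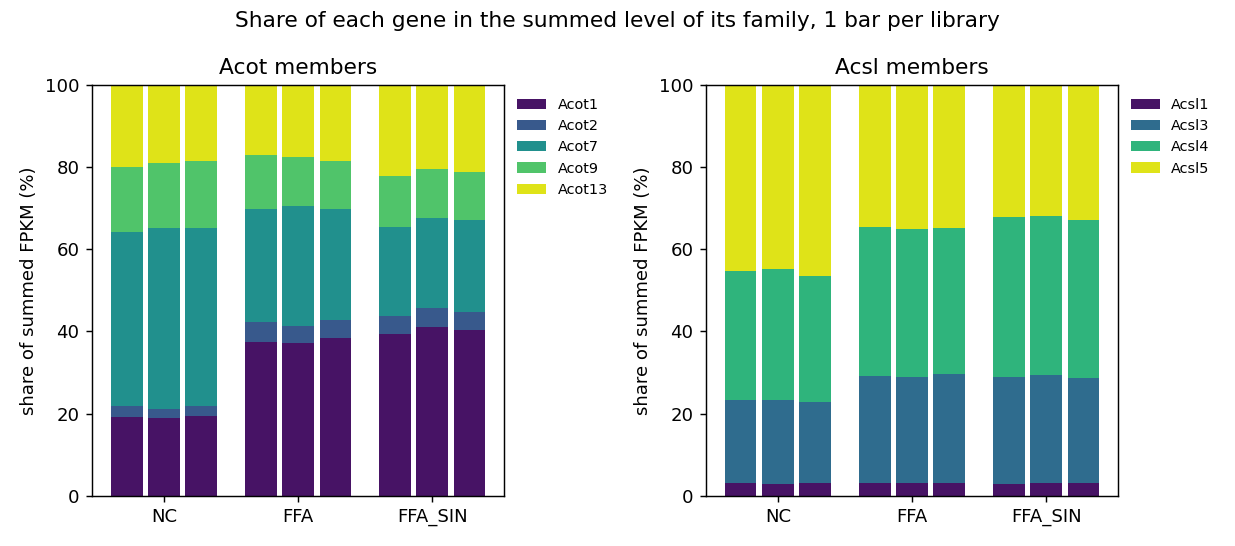
Share in percent of each gene in the summed FPKM of the 5 Acot genes (left) and the 4 Acsl genes (right), with 1 bar per library, grouped as NC, FFA and FFA_SIN. Acot1 takes 19.2% of the Acot sum in NC and 40.2% in FFA_SIN, and Acsl5 takes 45.5% of the Acsl sum in NC and 32.3% in FFA_SIN.

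The order of the levels changed with the groups. In NC it ran Acsl5, Acot7, Acsl4, Acsl3, Acot1, Acot13, Acot9, Acsl1 and Acot2, and the libraries of Acot7 and Acsl4, and of Acot1 and Acot13, overlapped. In FFA it ran Acot1, Acsl4, Acsl5, Acot7, Acsl3, Acot13, Acot9, Acot2 and Acsl1, with no overlap between neighbours. In FFA_SIN it ran Acot1, Acsl4, Acsl5, Acsl3, Acot7, Acot13, Acot9, Acot2 and Acsl1, with Acot7 and Acot13 overlapping. Acot1 thus went from the fifth place to the top. By the length of the longest coding transcript it went from the fourth place to the top, but Acot2 stayed below Acsl1 in every group (10.9 against 20.1 in FFA), since the exons of Acsl1 sum to 10483 bases and its transcript has 3897. By that length Acsl5 was also above Acsl4 in FFA, and below it in FFA_SIN. Acot7 was then above Acsl4 in FFA (96.0 against 89.8) and above Acsl3 in FFA_SIN (82.0 against 71.5). In NC, Acot9 was then above Acot13, with their libraries overlapping.

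Likeness of pattern over the 9 libraries was taken as the distance between log2(FPKM + 1) values centred on each gene's mean, over 11658 other genes. Genes without a symbol were passed over, and the closest of the rest are given. For Acot1, the thioesterase with the largest change, they were Plin2, a coat protein of lipid droplets (distance 0.19), Insig1, a brake on sterol synthesis (0.22), and Cyp51, a sterol synthesis enzyme (0.40). For Acsl3, the synthetase with the largest change, they were Abca5, an ABC transporter (0.08), Fads1, a fatty acid desaturase (0.15), and Dnajc10, a chaperone of the endoplasmic reticulum (0.15). Among the members themselves the closest pairs were Acsl3 with Acsl4 (distance 0.22), Acot7 with Acsl5 (0.26) and Acot9 with Acsl1 (0.27). The distance is a description over 9 libraries in 3 groups, with no test.

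Around these 9 genes, 53 others were looked at, 5 of them PPAR regulators and the rest genes of acyl-CoA turnover. Of the 53, 50 had a row and 29 were tested. In FFA against NC 11 of the 29 rose and 5 fell, at a median log2FC of 0.04, where 19.1% of all genes rose and 18.4% fell. In FFA_SIN against FFA 3 rose and 6 fell, at a median of -0.01 (13.9% and 17.3% of all genes), and in FFA_SIN against NC 11 rose and 8 fell, at a median of 0.04 (24.7% and 26.5% of all genes). By role, 4 of 8 tested other ligases rose in FFA against NC (Aacs, Acsf2, Acss2 and Slc27a1), and of 4 tested other thioesterases 1 fell (Baat). Baat passed the filter only through its level in NC. Of 7 tested coenzyme A synthesis genes 3 rose and 1 fell, of 5 tested acyl-CoA binding proteins 2 rose and 1 fell, and of 2 coenzyme A hydrolases 1 rose. In FFA_SIN against FFA the 3 that rose were Slc27a6, Nudt19 and Ppargc1a, and the 6 that fell were Aacs, Acsf3, Acss2, Acbd5, Acot8 and Rxra. These lists are short and were also chosen with earlier results of these data known, and their counts are given as descriptions beside the shares over all genes.

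Of these, 5 genes had a called change of at least 0.5 in log2FC in some comparison. They were Baat, Dbi and Slc27a1 in FFA against NC, and Ppargc1a alone in FFA_SIN against FFA. In FFA_SIN against NC they were Nudt19, Ppargc1a and Slc27a1. Over all genes tested, the share was 2.64% in FFA against NC, 2.56% in FFA_SIN against FFA and 6.63% in FFA_SIN against NC. The share of all genes in any of the 3 comparisons was not counted. The 1 FPKM added before the logarithm makes a log2FC smaller in size than that of FPKM itself, most for low genes such as Ppargc1a and Baat. Slc27a1, the fatty acid transport protein with ligase activity, rose with fatty acids from 5.66 ± 0.254 to 9.17 ± 0.0481 FPKM (log2FC 0.61 ± 0.05, limma adjusted p = 1.3e-05). Dbi, the acyl-CoA binding protein that carries acyl-CoA through the cytosol, rose from 59.8 ± 2.71 to 85.3 ± 2.59 FPKM (log2FC 0.50 ± 0.04, limma adjusted p = 9.87e-06). Baat, which cuts bile acid CoA esters and joins bile acids to amino acids, fell from 1.62 ± 0.0818 to 0.724 ± 0.0694 FPKM (log2FC -0.60 ± 0.09, limma adjusted p = 0.000617). With a mean of 0.924 FPKM in FFA_SIN, Baat passed the filter of 1 FPKM only through its level in NC, so its called fall is not independent of the filter. Slc27a1, Dbi and Baat did not pass the threshold in FFA_SIN against FFA (limma adjusted p = 0.349, 0.0965 and 0.22). Nudt19, a peroxisomal enzyme that splits coenzyme A, rose in each step, from 6.66 ± 0.533 to 9.004 ± 0.2 and 10.5 ± 0.242 FPKM (log2FC 0.59 ± 0.05 in FFA_SIN against NC, limma adjusted p = 7.01e-06). Ppargc1a, a coactivator of PPAR alpha and of mitochondrial genes, was at 1.005 ± 0.0247, 1.51 ± 0.0397 and 2.55 ± 0.0539 FPKM, a rise in FFA against NC (log2FC 0.32 ± 0.04, limma adjusted p = 0.000316) and again in FFA_SIN against FFA (log2FC 0.50 ± 0.04, limma adjusted p = 2.07e-05). The other tested PPAR regulators held no called rise. Rxra, the partner receptor of the PPARs, was at 18.7 ± 0.58, 15.8 ± 0.468 and 14.2 ± 0.085 FPKM and fell in FFA against NC (log2FC -0.23 ± 0.03, limma adjusted p = 0.000295) and in FFA_SIN against FFA (log2FC -0.14 ± 0.03, limma adjusted p = 0.00611). Ppard fell in FFA against NC (log2FC -0.20 ± 0.05, limma adjusted p = 0.0108), from 5.72 ± 0.334 to 4.83 ± 0.114 FPKM. Ppara and Pparg were below the filter, at means of 0.544, 0.369 and 0.350 FPKM and of 0.847, 0.599 and 0.378 FPKM.

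**Figure D5:**
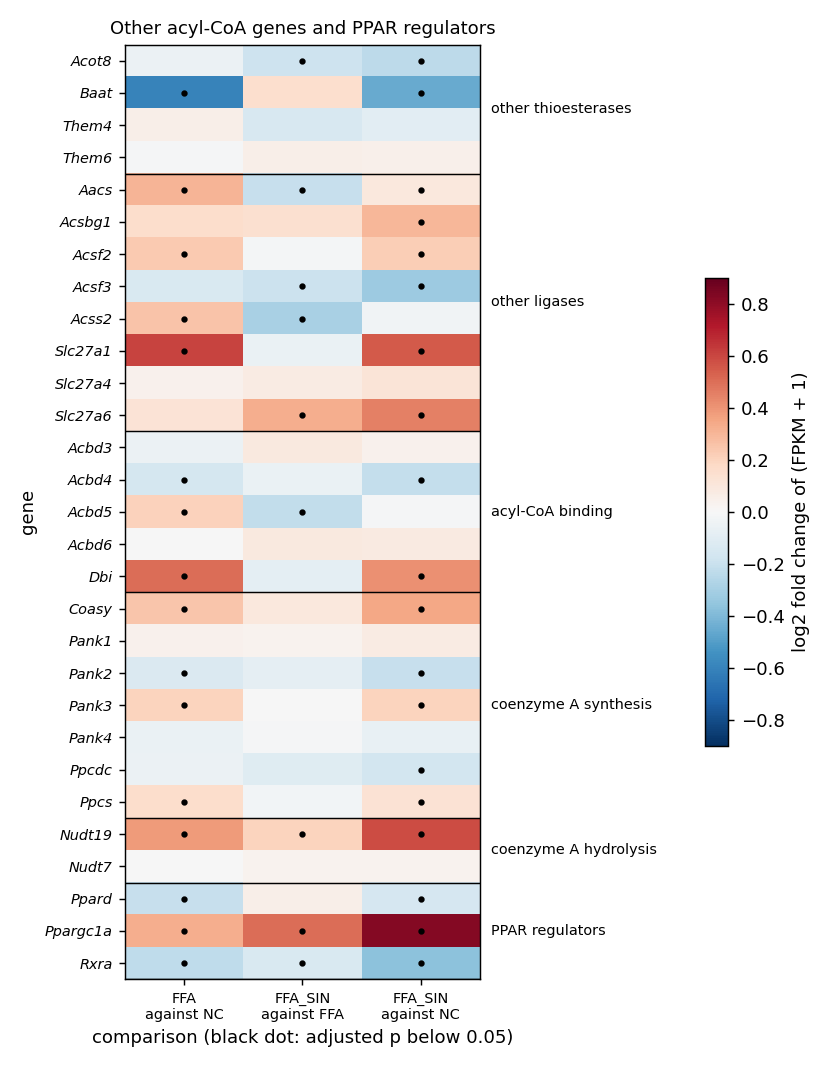
Log2 fold change of FPKM + 1 (colour) of the 29 tested genes of acyl-CoA turnover and PPAR regulators outside the 9 members, in the 3 comparisons (columns), grouped by role; a black dot marks an adjusted p below 0.05. Slc27a1, Dbi and Nudt19 are higher and Baat lower in FFA than in NC, and Ppargc1a is higher in each step.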

How the data were processed

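Per the file's values, the deposited table holds FPKM that the authors computed for 30350 genes in 9 libraries. Its header gives no unit, and FPKM was inferred from 6264 genes, picked because their values were near whole multiples of a step. In these genes the step scaled with total exon length (within 1% for 85.3% of them, against 0.974% for a step without length scaling, as in CPM). Per the submitters' processing notes, reads were trimmed with Trimmomatic and aligned with HISAT2 to GRCm39. For the counting tool, annotation and strand setting, the sources used here give nothing, so Acot1 and Acot2, Acsl3 with Utp14b (same strand) and Acsl5 with Zdhhc6 (opposite strand) are less certain. Read depth was derived from the steps and GENCODE vM21 exon lengths. Symbols (94.7% of genes) came from the same annotation of GRCm38.

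The test was limma 3.58.1 (R 4.3.3) applied to log2(FPKM + 1) of genes averaging 1 FPKM or more (all 9 libraries, a mean per group, variance trend, two-sided, Benjamini-Hochberg, threshold 0.05); the fit was checked on simulated data. Sequences were read with Biopython 1.88 in Python 3.11.15. The members and lists were chosen with earlier results of these data known. Other genes of the list were named if called with an absolute log2FC of at least 0.5 in any comparison. Alternatives were pseudocount 0.1, no filter, a filter of 5 FPKM, median-of-ratios scaling, no trend, pairs of groups, a replicate block, Acot1 and Acot2 summed, and leaving out each library.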

Additional observations from a re-analysis of the deposited data

How the results depend on the processing

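Under 17 alternatives a comparison, the number of genes called kept within 1.5 times its value (3479 to 4368 in FFA against NC, 2926 to 3638 in FFA_SIN against FFA, 4519 to 6037 in FFA_SIN against NC). The number of members called was 7 to 9, 5 to 6 and 8 to 9; the lowest of the first came from summing Acot1 and Acot2 into 1 gene. Of 456 recomputed log2FC values of members, 449 kept their direction and side of the threshold. The log2FC of Acsl3 in FFA_SIN against FFA ran from -0.0021 to 0.0472 when a library was left out, the only change of sign. The other 6 values that crossed the threshold stand beside Acot2, Acot7, Acot9 and Acsl1 above, and the cause was not tested. The log2 ratio of Acot1 to Acot2 differed by 0.06 to 0.14, 0.04 to 0.11 and 0.15 to 0.20 when a library was left out. Same-numbered libraries correlated in their deviations from the group means at -0.01 to 0.17, with 1 of 9 pairs over 0.1. The labels do not say whether equal numbers mark a pair, and with 3 libraries per group these correlations cannot settle it. With a replicate block 4338, 3607 and 6006 genes were called, and 8, 5 and 9 members. Median-of-ratios scaling moved the family sums by less than 1 SD. The length of the longest coding transcript in place of total exon length moved sums and shares, here in the order NC, FFA and FFA_SIN. The thioesterase sum became 226, 349 and 376, with Acot1 at 24.1%, 45.5% and 48.7%, Acot2 at 1.77%, 3.11% and 3.17%, Acot9 at 15.3%, 11.1% and 10.9%, and Acot13 at 14.4%, 12.8% and 15.4%, and Acot7 at 44.5% in NC. The synthetase sum became 253, 278 and 282, with Acsl1 at 6.98%, 7.23% and 6.87%, Acsl3 at 19.5%, 25.4% and 25.4%, and Acsl4 at 27.97%, 32.3% and 35.04%, and Acsl5 at 35.1% in FFA. Both settings were chosen after the data were seen. FPKM gives no count test, and the strand setting and the share of multiply aligned reads are unknown.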

Other observations

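The other Acot genes looked at from the cluster that holds Acot1 and Acot2 on chromosome 12 were all but silent. Acot3, Acot4, Acot5 and Acot6, which belong to the same cluster of related thioesterases, reached at most 0.01005, 0.137, 0.0389 and 0.0188 FPKM in any library. Of the 12 other thioesterases on the list, 8 were below the filter, the highest of them Them5 at 0.982 FPKM. Of the other ligases, 10 were below the filter. Among these, Acsl6, the remaining member of the long-chain family, reached at most 0.0057 FPKM.

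Parts of 3 other members are shared with a neighbour or a copy. Of the 100-base stretches of the Acsl3 transcript 2.8% were also in Utp14b, of Acsl5 2.32% in Zdhhc6, and of Acot9 0.968% in Acot10. Utp14b was at 2.56, 2.87 and 2.86 FPKM in NC, FFA and FFA_SIN, and Zdhhc6 at 18.4, 19.0 and 18.3 FPKM, levels of 4.41% to 22.9% of the member they overlap. Acot10 reached at most 0.0753 FPKM. Acot7, Acot13, Acsl1 and Acsl4 shared 0 such stretches with any other gene of the annotation. The coding sequences of Acsl3 and Acsl4, which both rose, were 67.7% identical, and those of Acsl1 and Acsl5, which moved in opposite directions in FFA against NC, 64.8%; other pairs of synthetases were 58.0% to 59.9% identical.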
